A study of Mus musculus with 1 sample.

Results

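The genes described here encode the receptor chains through which myeloid cells sense the colony-stimulating factors and several interleukins: Csf1r, Csf3r, Csf2ra, Il3ra, Csf2rb, Csf2rb2, Il6ra and Il1rl1. They were taken by gene symbol and made up 8 of the 32285 genes of 1 single-cell RNA-seq library. The library was of Lin-, Kit+ cells sorted from marrow of the femora and tibiae of control mice on the C57BL/6 strain, labelled CD45.2(+) Brd9fl/fl for the donor and CD45.1(+) CD45.2(-) for the recipient. Per the study's methods these controls carried the floxed Brd9 alleles without Mx1-Cre, so the deletion of Brd9 was not induced in them. The mice had received pIpC, a double-stranded RNA mimic that induces interferon, at 20 mg/kg in 3 doses, and cells were prepared 8 weeks later. The series text places those doses 4 weeks after birth in primary mice, and the methods name no transplant for this library, while the sample label speaks of a transplant and of a kit for bulk RNA. Which description applies could not be settled, although the matrix has the form of a 10x Chromium single-cell library. With 1 library there are no replicates, so no test was possible and every interval below is an exact 95% interval that covers counting error only.

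As background, Csf1r is a receptor tyrosine kinase for macrophage colony-stimulating factor and interleukin-34, and Csf3r binds granulocyte colony-stimulating factor as a homodimer. The receptors for GM-CSF and interleukin-3 each pair a private alpha chain, Csf2ra or Il3ra, with the common beta chain Csf2rb, which also serves the interleukin-5 receptor, and mice carry a further beta chain, Csf2rb2, that serves interleukin-3 alone. Il6ra binds interleukin-6 and signals through gp130, the product of Il6st, while Il1rl1 (ST2) binds interleukin-33 and works with the accessory protein encoded by Il1rap.

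After filters on unique molecular identifiers (UMIs), genes and mitochondrial share, 7645 of 8817 barcodes were kept, with a median of 18696 UMIs and 4171 genes per cell. Kit, the receptor used for the sort, had UMIs in 5031 of the 7645 cells and lay between 27.0 and 268 CPM across the classes below, where CPM stands for UMIs per 1000000 UMIs, summed over the cells of a class. Cells were placed in 12 classes by the summed CPM of marker lists that held none of the 8 receptors. A class is therefore a range cut from a score, and the cells nearest the cut were few for the basophil or mast cell gate (5 of 253 within 20% above it), the eosinophil gate (0 of 30) and the monocyte gate (40 of 878), and more for the stem gate (159 of 747) and the plasmacytoid dendritic gate (36 of 125). Median depth was 8279 UMIs in the stem gate, 12297 in the basophil or mast cell gate, 11295 in the eosinophil gate, 20968 in the monocyte gate and 33403 in the erythroid gate. A further 1620 cells passed no cut, and 302 cells that passed several were left out as mixed.

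The gates differed in how well their markers defined them. Basophil or mast cell gated cells held the basophil proteases Mcpt8 at 12947 CPM and Prss34 at 23111 CPM, whereas the mast cell proteases Cma1 (27.1 CPM) and Tpsb2 (0 UMIs) were low or absent. In the 30 eosinophil-gated cells the granule protein Prg2 made up 87.3% of the marker sum on average, with the eosinophil peroxidase Epx at 997 CPM and basophil Mcpt8 at 325 CPM. The later neutrophil gate rested on S100a8, which gave 86.5% of its marker sum, while Ltf had 0 UMIs and Ly6g 1 UMI, and 71 of its 253 cells had fewer than 3 of the markers. In the plasmacytoid dendritic gate, 46 of the 125 cells had fewer than 3 of its 4 markers. RNA of the early neutrophil granule genes was found outside its own gate, with a median sum of 859 CPM over stem-gated cells, 9523 over monocyte-gated, 7824 over basophil or mast cell gated and 8343 over eosinophil-gated cells. This RNA was highest in the later neutrophil gate, with a median sum of 55283 CPM against 32638 in the granule progenitor gate. Its part in the receptor values was not tested.

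The stem gate, the reference for the comparisons below, held 2 kinds of cell that differed in their receptors. Of its 747 cells, 64 had under 400 CPM of the 9 stem markers other than Ifitm1, an interferon-inducible membrane protein, so that Ifitm1 carried them past the cut. This division was chosen after the values were seen. In these 64 cells Mecom, a stem cell regulator, and Procr, a stem cell surface marker, had 0 UMIs and the transcription factor Hlf lay at 15.1 CPM, against 171, 139 and 574 CPM in the other 683. The high-affinity IgE receptor chains Ms4a2 (465 CPM) and Fcer1a (320 CPM) and the protease Cpa3 (455 CPM) were present in the 64, against 3.63, 2.81 and 10.6 CPM in the 683.

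The 64 cells held most of the stem gate's UMIs for 3 of the 8 receptors: 45 of 49 for Il1rl1 (91.8%), 86 of 111 for Csf2rb (77.5%) and 18 of 26 for Csf2rb2 (69.2%). They held 40.5% of the Il3ra UMIs and 13.4% of the Csf2ra UMIs. By contrast they held 2 of 198 Csf3r UMIs (1.01%), 2 of 31 Il6ra UMIs (6.45%) and none of the 6 Csf1r UMIs. In CPM, Csf2rb lay at 108 in the 64 cells (86.4 to 134) and at 4.13 in the 683 (2.67 to 6.09), and Il1rl1 at 56.6 and 0.660. Csf3r ran the other way, at 2.51 CPM in the 64 and 32.4 in the 683. Ratios to the stem gate of Il3ra, Csf2rb, Csf2rb2 and Il1rl1 are therefore given below for both the 747 and the 683 cells.

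**Figure D1:**
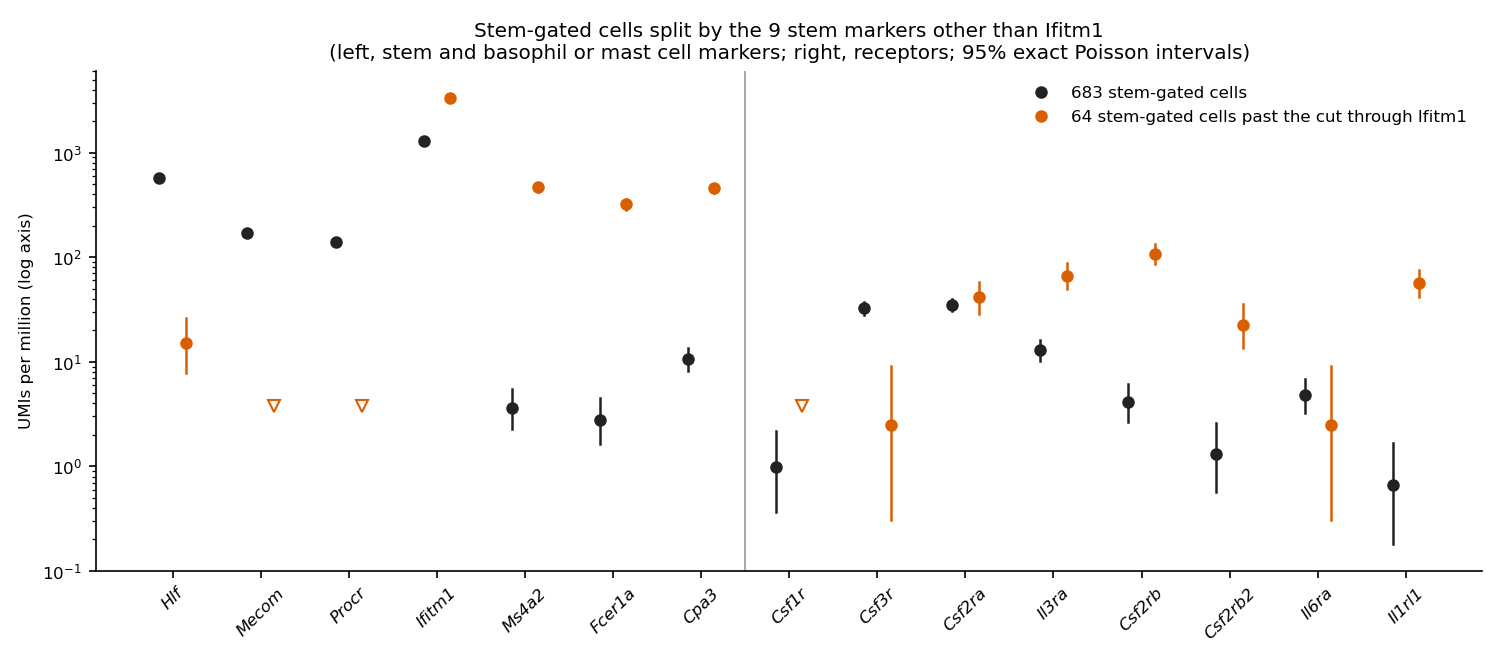
Levels of markers (left) and of the 8 receptors (right) in CPM on a log axis, in the 683 stem-gated cells with at least 400 CPM of the stem markers other than Ifitm1 and in the 64 below it; lines are exact 95% Poisson intervals and open triangles mark the floor of 3 UMIs for genes at 0. The 64 cells stood higher for Il1rl1, Csf2rb, Csf2rb2 and Il3ra and lower for Csf3r.

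Csf1r (ENSMUSG00000024621; GRCm38 chr18:61100598-61132149, plus strand) was highest in monocyte-gated cells at 103.5 CPM (99.0 to 108.2, 1968 UMIs). It was 79.9 CPM in plasmacytoid dendritic cells, 63.3 in cells past both the granule and the monocyte cut, 14.6 in granule progenitors, 11.6 in conventional dendritic cells and 10.97 in multipotent progenitors. These fell into steps: monocyte-gated cells stood above plasmacytoid dendritic cells (1.30-fold, 1.09 to 1.56), those above the granule and monocyte cells (1.26-fold), and these 4.35-fold above granule progenitors, while granule progenitors, conventional dendritic cells and multipotent progenitors were not separated beyond counting error. In the remaining gates Csf1r was near 0, at 2.94 CPM in later neutrophil, 2.65 in eosinophil (1 UMI), 2.08 in basophil or mast cell, 1.51 in erythroid, 0.875 in stem and 0.545 CPM in megakaryocyte gated cells. Monocyte-gated cells held 51.6% of the 3814 Csf1r UMIs and the granule and monocyte cells a further 23.0%. Csf1r was lower in the later neutrophil gate than in the granule progenitor gate, and monocyte-gated cells exceeded them 35.2-fold (21.0 to 64.6) and 7.12-fold (6.33 to 8.03). The order of the later neutrophil and granule progenitor gates in maturation was not tested. The gene shares its span with Hmgxb3 on the other strand and with Mir6983.

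**Figure D2:**
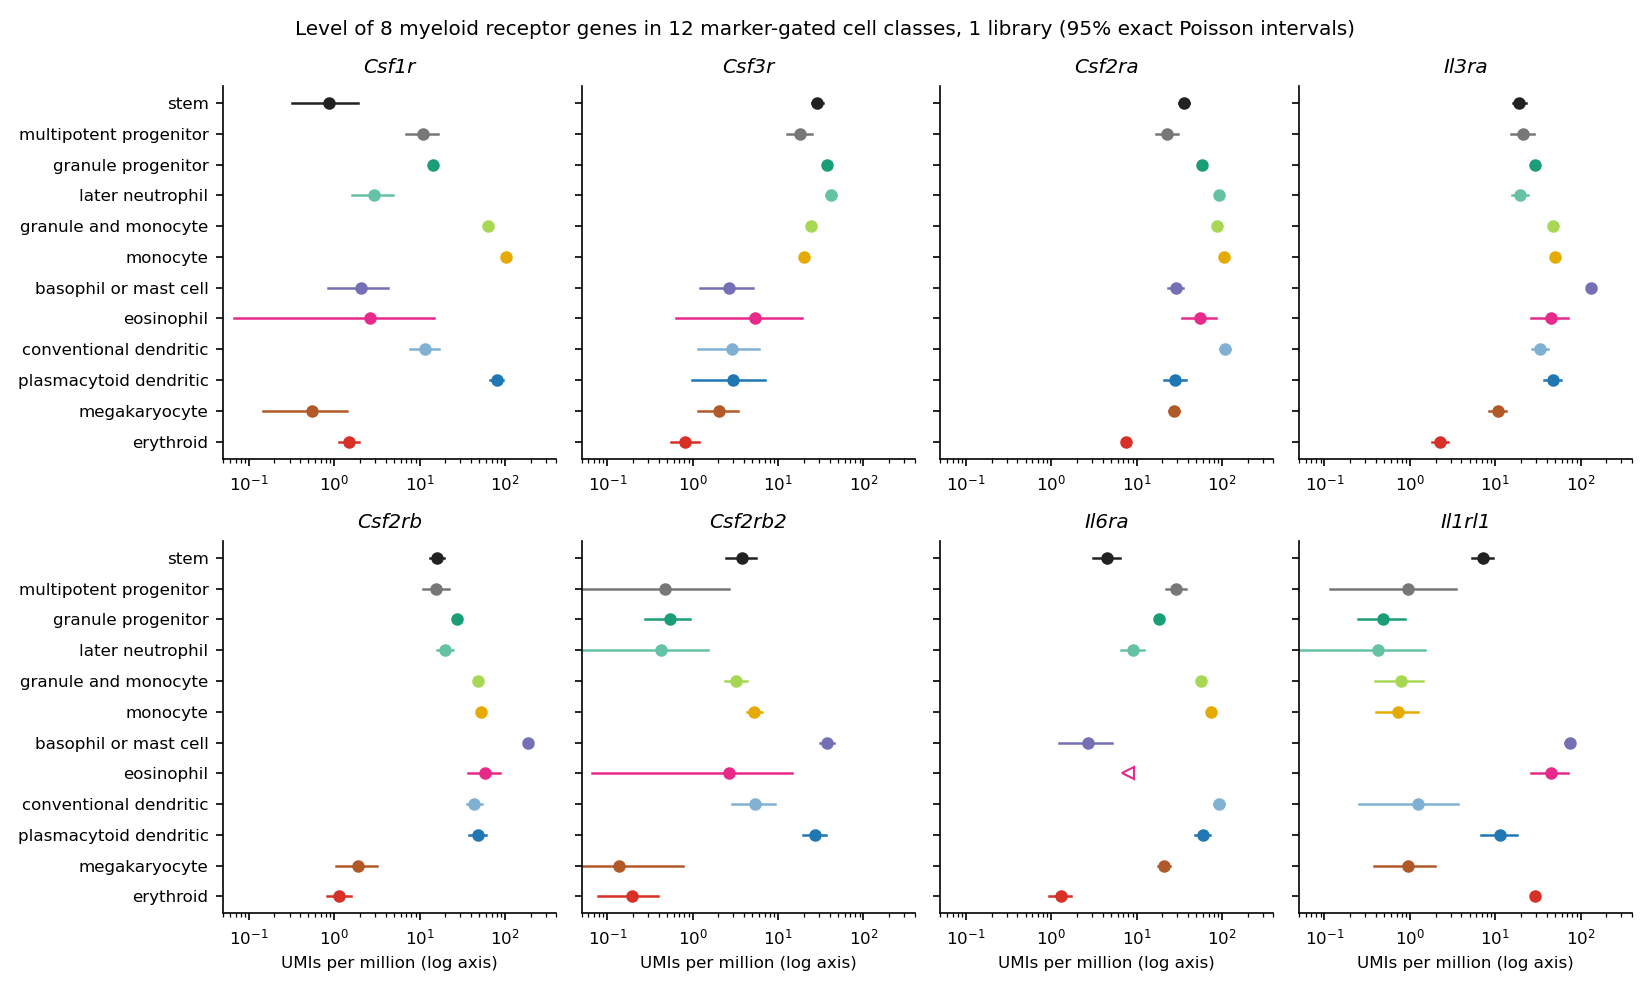
Level of each receptor in CPM on a log axis, 1 panel per gene, in the 12 classes of cells, with exact 95% Poisson intervals; the open triangle is the floor of 3 UMIs where a class had 0. Csf1r peaks in the monocyte gate, Csf3r in the neutrophil gates, Il3ra, Csf2rb, Csf2rb2 and Il1rl1 in the basophil or mast cell gate, and Csf2ra and Il6ra in the conventional dendritic and monocyte gates.

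Csf3r (ENSMUSG00000028859; chr4:126024550-126044440, plus strand) showed a flatter profile that included the stem gate. It was 42.0 CPM in later neutrophil gated cells (36.4 to 48.2) and 37.3 in granule progenitors (34.8 to 39.9), which did not differ beyond counting error (1.13-fold, 0.959 to 1.31). Granule progenitors exceeded stem-gated cells, at 28.9 CPM, by 1.29-fold (1.11 to 1.52), and by 1.15-fold over the 683 stem cells (0.986 to 1.35), an interval that includes 1. Granule and monocyte cells followed at 24.5 CPM, monocyte-gated cells at 20.2 and multipotent progenitors at 18.1. Csf3r was low elsewhere, from 5.29 CPM in eosinophil (2 UMIs), 3.00 in plasmacytoid dendritic, 2.90 in conventional dendritic and 2.68 in basophil or mast cell gated cells to 2.04 in megakaryocyte and 0.823 CPM in erythroid gated cells. Monocyte-gated cells held 0.481 times the level of later neutrophil gated cells (0.405 to 0.574), the opposite order to Csf1r.

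The promoter window of Csf3r (RefSeq, GRCm38.p6, chr4:126024409-126024708, plus strand) is shown because it differs from those of Il3ra, Csf2rb2 and Il1rl1 below in the short words it holds. Windows run from 250 bases before to 50 after the start, and 6 of the 8 genes had an entry in the table (not Csf1r and Csf2rb). Capitals mark matches on either strand to the GATA words AGATAA or AGATAG or TGATAA or TGATAG, and to the ETS word AGGAAG, which occurs in PU.1-type sites, and the words of the 2 kinds do not overlap in the windows printed.
Csf3r: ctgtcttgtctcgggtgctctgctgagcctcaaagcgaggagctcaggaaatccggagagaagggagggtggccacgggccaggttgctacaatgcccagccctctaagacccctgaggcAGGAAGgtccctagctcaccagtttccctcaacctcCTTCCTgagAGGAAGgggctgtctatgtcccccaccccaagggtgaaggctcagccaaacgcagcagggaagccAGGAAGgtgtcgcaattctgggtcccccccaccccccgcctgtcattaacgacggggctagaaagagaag
The Csf3r window held 4 ETS matches and 0 GATA matches. Of all 32851 promoter windows, 35.4% held at least 1 ETS match and 0.432% at least 4, while 29.8% held at least 1 GATA match. A match is a description of these letters and not of a bound site.

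Csf2ra (ENSMUSG00000059326; chr19:61223957-61228429, minus strand), the GM-CSF alpha chain, was found in every gate, with its top shared by conventional dendritic cells at 108.6 CPM (95.9 to 122.6) and monocyte-gated cells at 106.2 (101.7 to 111). It was 92.7 CPM in later neutrophil, 88.1 in granule and monocyte, 58.9 in granule progenitor and 55.6 in eosinophil gated cells. Below these lay a group not separated beyond counting error from each neighbour, namely stem at 35.9, basophil or mast cell at 28.6, plasmacytoid dendritic at 28.2, megakaryocyte at 27.5 and multipotent progenitor at 22.9 CPM. The eosinophil gate was not separated from the stem gate either (1.55-fold, 0.941 to 2.42). Erythroid-gated cells were lowest at 7.52 CPM, 3.05-fold below the multipotent progenitors. Basophil or mast cell gated cells, which led for the beta chain that pairs with it, held 0.269 times the monocyte level of Csf2ra (0.217 to 0.330).

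Il3ra (ENSMUSG00000068758; chr14:14346275-14356011, plus strand), the interleukin-3 alpha chain, peaked in basophil or mast cell gated cells at 134.1 CPM (122 to 147.1, 451 UMIs), 2.66-fold above the next gate (2.38 to 2.98). That next gate was the monocyte gate at 50.4 CPM, followed by plasmacytoid dendritic at 47.4, granule and monocyte at 46.9, eosinophil at 44.97, conventional dendritic at 33.6 and granule progenitor cells at 29.6 CPM, none separated from its neighbour. Multipotent progenitors at 21.0, later neutrophil at 19.5 and stem-gated cells at 19.1 CPM formed a lower group. Megakaryocyte-gated cells stood at 10.8 CPM and erythroid-gated cells at 2.28 CPM. In the 683 stem cells Il3ra was 12.9 CPM (10.2 to 16.1). The annotated gene Gm48860 overlaps Il3ra on the other strand.

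The Il3ra and Csf2rb2 windows are shown because both genes, with Csf2rb, were highest in the basophil or mast cell gate. They lie at chr14:14346245-14346544 on the plus strand and chr15:78305672-78305971 on the minus strand, each printed along the strand of its gene, with capitals as above.
Il3ra: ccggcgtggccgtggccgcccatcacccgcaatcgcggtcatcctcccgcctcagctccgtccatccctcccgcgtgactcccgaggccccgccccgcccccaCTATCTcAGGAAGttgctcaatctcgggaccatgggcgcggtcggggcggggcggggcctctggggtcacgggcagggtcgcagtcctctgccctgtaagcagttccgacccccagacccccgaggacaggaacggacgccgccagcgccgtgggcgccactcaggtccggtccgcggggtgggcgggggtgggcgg
Csf2rb2: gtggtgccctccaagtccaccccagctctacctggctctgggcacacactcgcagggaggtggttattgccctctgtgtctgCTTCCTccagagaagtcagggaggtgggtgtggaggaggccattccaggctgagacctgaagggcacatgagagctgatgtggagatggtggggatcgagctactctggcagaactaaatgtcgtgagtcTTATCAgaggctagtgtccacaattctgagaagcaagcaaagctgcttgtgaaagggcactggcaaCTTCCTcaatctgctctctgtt
The Il3ra window held 1 GATA and 1 ETS match, and the Csf2rb2 window 1 GATA and 2 ETS matches. At least 1 GATA match is found in 29.8% and at least 2 ETS matches in 8.62% of all windows. The window of Il6ra, low in this gate, held 1 GATA and 1 ETS match, and that of Csf2ra 0 GATA and 2 ETS matches.

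Csf2rb (ENSMUSG00000071713; chr15:78325752-78353847, plus strand), the common beta chain, was also highest in the basophil or mast cell gate, at 184.4 CPM (170.2 to 199.5, 620 UMIs, up to 19 in a single cell). Eosinophil-gated cells came next at 58.2 CPM (36.5 to 88.1, 22 UMIs), 3.17-fold lower (2.07 to 5.09). Monocyte at 52.9, granule and monocyte at 48.4, plasmacytoid dendritic at 48.0 and conventional dendritic gated cells at 44.0 CPM were not separated from one another in order. Granule progenitors at 27.2, later neutrophil at 19.9, stem at 16.2 and multipotent progenitor gated cells at 15.7 CPM were lower. Csf2rb then dropped 8.25-fold to 1.91 CPM in megakaryocyte and 1.15 CPM in erythroid gated cells, so that the basophil or mast cell gate stood 160-fold above the erythroid gate (117 to 224). It stood 3.49-fold above the monocyte gate (3.15 to 3.86). In the 683 stem cells Csf2rb was 4.13 CPM (2.67 to 6.09), between the multipotent progenitor and megakaryocyte gates.

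Csf2rb2 (ENSMUSG00000071714; chr15:78282507-78305721, minus strand), the interleukin-3 beta chain, was high in only 2 of the 12 gates. It was 37.5 CPM in basophil or mast cell (31.2 to 44.6, 126 UMIs) and 27.0 CPM in plasmacytoid dendritic gated cells (19.7 to 36.2), which did not differ beyond counting error (1.39-fold, 0.980 to 1.996). The plasmacytoid dendritic gate stood 5.01-fold above the next (2.66 to 10.1). The others ran from 5.39 CPM in conventional dendritic, 5.26 in monocyte, 3.79 in stem and 3.25 in granule and monocyte gated cells down to 2.65 in eosinophil (1 UMI), 0.535 in granule progenitor, 0.477 in multipotent progenitor, 0.420 in later neutrophil, 0.192 in erythroid and 0.136 CPM in megakaryocyte gated cells. In the 683 stem cells Csf2rb2 was 1.32 CPM.

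As a share of the UMIs of both beta chains, Csf2rb2 made up 36% in plasmacytoid dendritic cells (27.6% to 45.1%, 125 UMIs), 19.0% in the stem gate (12.8% to 26.6%) and 16.9% in the basophil or mast cell gate (14.3% to 19.8%). It made up 9.04% in the monocyte gate (7.42% to 10.9%), 6.29% in granule and monocyte cells and 1.93% in granule progenitors (1.002% to 3.35%), against 10.3% over all kept cells. The monocyte gate, with a Csf2rb level close to that of plasmacytoid dendritic cells, thus had a lower Csf2rb2 share by intervals that did not overlap. Within the plasmacytoid dendritic gate, 74 cells with a UMI of the defining gene Siglech had a share of 42.4% (31.7% to 53.6%) and 51 cells without had 22.5% (10.8% to 38.5%), a division made after the values were seen.

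**Figure D3:**
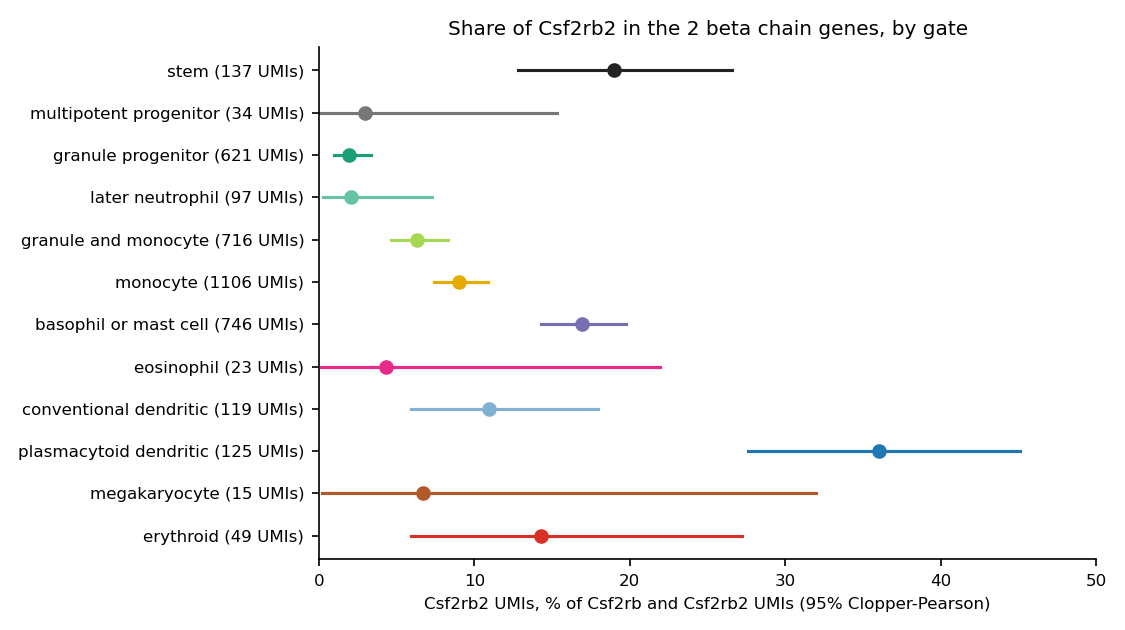
Percent of the summed Csf2rb and Csf2rb2 UMIs that were Csf2rb2, per class of cells, with exact Clopper-Pearson 95% intervals. The plasmacytoid dendritic gate is highest at 36% and the granule progenitor gate low at 1.93%.

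The pair are near copies, lying 20030 bases apart on opposite strands, and reads could be split between them. Their longest annotated transcripts, of 4900 and 4740 bases, were identical at 92.3% of 4665 aligned positions, but at 86.5% of 467 positions in the last 500 bases, from which a 3′ library mostly reads. No 90-base stretch of those last 500 bases was shared, against 8.19% and 8.47% of the stretches over the whole transcripts. Split or lost reads between Csf2rb and Csf2rb2 were not tested on the reads themselves, and the level of each is uncertain to that extent.

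Il6ra (ENSMUSG00000027947; chr3:89864059-89913196, minus strand), the interleukin-6 binding chain, was highest in conventional dendritic cells at 91.7 CPM (79.96 to 104.6) and in monocyte-gated cells at 74.6 CPM (70.8 to 78.6), which differed by 1.23-fold. Plasmacytoid dendritic cells at 59.4 and granule and monocyte cells at 57.2 CPM were not separated. Multipotent progenitors followed at 29.1, megakaryocyte-gated cells at 21.0, granule progenitors at 18.5 and later neutrophil gated cells at 9.02 CPM. Il6ra was 4.52 CPM in the stem gate, 2.68 in the basophil or mast cell gate and 1.29 in the erythroid gate, and had 0 UMIs in the 30 eosinophil-gated cells, with an exact upper limit of 9.76 CPM and a floor of 7.94 CPM for 3 UMIs. When all 59 cells past the eosinophil cut were counted, also those past other cuts, Il6ra was 9.01 CPM (7 UMIs). The gene model Gm42809 overlaps Il6ra on the other strand.

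Its partner Il6st followed it in part, at 100.3 CPM in the monocyte gate, 111.7 in plasmacytoid dendritic and 22.3 in stem-gated cells, a 4.49-fold difference between monocyte and stem gates (3.81 to 5.33). In granule progenitors Il6ra was present while Il6st was at 7.01 CPM, 0.314 times the stem level. Later neutrophil gated cells held 1.26 CPM of Il6st, and basophil or mast cell gated cells 2.97 CPM. The basophil or mast cell and erythroid gates were thus low for both chains of the interleukin-6 receptor.

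Il1rl1 (ENSMUSG00000026069; chr1:40429570-40465415, plus strand), the interleukin-33 receptor, had a profile that ran beyond the myeloid gates. It was 74.7 CPM in basophil or mast cell gated cells (65.7 to 84.5, 251 UMIs), 44.97 in eosinophil (26.2 to 72, 17 UMIs) and 29.1 in erythroid gated cells (27.4 to 30.9, 1062 UMIs). The basophil or mast cell gate exceeded the eosinophil gate by 1.66-fold (1.02 to 2.90), and the eosinophil and erythroid gates were not separated. Because erythroid-gated cells were many and deep, they held 59.5% of all 1784 Il1rl1 UMIs, against 14.1% in the basophil or mast cell gate, so the label of a myeloid receptor does not hold for where most of this RNA was found. Il1rl1 was 11.4 CPM in plasmacytoid dendritic and 7.15 CPM in stem-gated cells, and between 0.420 and 1.24 CPM in the other gates, 0.736 in the monocyte gate among them. In the 683 stem cells it was 0.660 CPM (4 UMIs), and in the plasmacytoid dendritic gate all 19 UMIs were in the 51 cells with no Siglech UMI. All 19 also lay in 37 cells of that gate not past the multipotent progenitor cut, a division made after the values were seen. Those 37 cells held the lymphoid genes Il7r at 58.4, Trbc2 at 37.6 and Gata3 at 33.4 CPM, beside Siglech at 104 and Tcf4 at 390 CPM.

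The gene has a far and a near start, and both windows are shown because they differ in how many GATA words they hold. They lie at chr1:40429320-40429619 and chr1:40439379-40439678 on the plus strand, the near one inside the annotated gene, with capitals as above.
Il1rl1 far start: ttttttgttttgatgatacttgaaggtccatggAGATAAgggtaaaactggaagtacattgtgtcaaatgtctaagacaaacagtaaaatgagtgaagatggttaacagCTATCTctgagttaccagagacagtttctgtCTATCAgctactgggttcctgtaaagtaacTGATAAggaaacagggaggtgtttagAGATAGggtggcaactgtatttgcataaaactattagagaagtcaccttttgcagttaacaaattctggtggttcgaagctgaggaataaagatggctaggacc
Il1rl1 near start: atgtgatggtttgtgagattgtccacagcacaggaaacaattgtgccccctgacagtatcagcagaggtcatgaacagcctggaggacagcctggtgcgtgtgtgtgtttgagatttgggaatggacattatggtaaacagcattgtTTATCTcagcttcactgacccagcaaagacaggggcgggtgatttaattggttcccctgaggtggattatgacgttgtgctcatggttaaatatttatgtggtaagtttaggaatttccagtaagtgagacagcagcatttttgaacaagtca
The far window held 5 GATA matches and 0 ETS matches, and the near window 1 and 0. At least 4 GATA matches are found in 0.332% of all windows. A 3′ library does not show from which start the RNA came. Whether GATA factors act at either start in these cells was not tested.

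Erythroid-gated cells were divided into quartiles of their haemoglobin RNA, after the values were seen, to show where along this range Il1rl1 lay. Il1rl1 was 28.7, 25.2, 25.8 and 37.8 CPM from the lowest to the highest quartile, with the interval of the highest (33.8 to 42.2) above those of the others. With each cell thinned to 5000 UMIs, 14.59%, 11.79%, 14.75% and 16.73% of the cells had an Il1rl1 UMI, with intervals that overlapped. Over the same quartiles Kit was 126, 83.0, 20.6 and 5.79 CPM, and Gata2 was 45.9, 28.1, 7.02 and 5.79 CPM. Il1rl1 was thus found at each level of haemoglobin RNA, including the quartile in which Kit and Gata2 were lowest. The mast cell and basophil gene Cpa3 was 6.57 CPM in the lowest and 2.01 CPM in the highest quartile, against 3420 CPM in the 245 basophil or mast cell gated cells described below. Fewer cells with a gene and less of its RNA per cell cannot be told apart from these sums.

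Within the basophil or mast cell gate, 8 cells with a UMI of the mast cell protease Cma1 had Il1rl1 at 276 CPM (188 to 392) and Kit at 464 CPM. The other 245 cells had Il1rl1 at 67.7 CPM (59.0 to 77.3) and Kit at 53.2 CPM. Divided instead at the median of the basophil protease Mcpt8, the upper 126 cells had Il3ra at 158 CPM (138 to 180) and Csf2rb at 218 (194 to 243), and the lower 127 had 116 (101 to 132) and 160 (142 to 179). Il1rl1 ran the other way, at 67.7 CPM in the upper and 79.8 CPM in the lower cells, with intervals that overlapped. Both divisions were made after the values were seen.

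To read the receptors against the rest of the genome, the levels in 5 gates were set against the stem gate as ratios, and a gene was counted as higher or lower at 2-fold or more where it had at least 50 UMIs in both gates together. In the monocyte gate, 5 of 8 receptors were higher and 1 lower, and all 8 passed the minimum. Of 11278 genes, 10.5% were higher and 26.0% lower. Csf1r was 118-fold higher (54.2 to 323), Il6ra 16.5-fold (11.6 to 24.4), Csf2rb 3.27-fold (2.68 to 4.01), Csf2ra 2.96-fold (2.59 to 3.39) and Il3ra 2.64-fold (2.19 to 3.19). Csf3r held 0.699 times the stem level (0.587 to 0.834) and Csf2rb2 1.39 times (0.893 to 2.23). The lower receptor was Il1rl1 at 0.103 times (0.0525 to 0.190), and that call ended over the 683 stem cells at 1.12 times (0.350 to 4.65). Over the 683 cells 6 receptors were higher and 0 lower, against 11.4% and 26.6% of 11217 genes. There Csf2rb was 12.8-fold higher (8.64 to 19.9), Il3ra 3.91-fold, and Csf2rb2 3.98-fold (1.95 to 9.48). Over all 747 stem-gated cells, the median log2 ratio of the receptors was 1.48, against -0.29 over all genes.

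In the basophil or mast cell gate, 4 of 8 receptors were higher and 1 lower, with 6 past the minimum, and 7.63% of 10329 genes were higher and 21.8% lower. Csf2rb was 11.4-fold higher (9.29 to 14.1), Il1rl1 10.4-fold (7.66 to 14.5), Csf2rb2 9.88-fold (6.44 to 15.7) and Il3ra 7.02-fold (5.77 to 8.59). Over the 683 stem cells the same receptors were higher by 44.7-fold (30.0 to 69.6), 113-fold (43.6 to 418), 28.4-fold (14.0 to 67.2) and 10.4-fold (8.18 to 13.4). Csf3r was lower at 0.0927 times (0.0418 to 0.180), while Csf2ra at 0.796 times (0.622 to 1.01) was not separated. Over all 747 stem-gated cells, the median log2 ratio was 2.03 for all 8 receptors, also those under the minimum, and -0.28 over all genes.

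In the eosinophil gate, which has only 30 cells, 3 of 8 receptors were higher and 1 lower, with 5 past the minimum, and 5.89% of 9781 genes were higher and 20.9% lower. Il1rl1 was 6.29-fold higher (3.40 to 11.1), Csf2rb 3.59-fold (2.17 to 5.72) and Il3ra 2.35-fold (1.33 to 3.91), while Csf3r lay at 0.183 times (0.0220 to 0.670). Csf2ra was 1.55 times (0.941 to 2.42). Over the 683 stem cells the ratios were 68.1 for Il1rl1 (22.2 to 278), 14.1 for Csf2rb (7.58 to 26.1) and 3.49 for Il3ra (1.94 to 5.96). Csf1r (1 UMI) had a ratio of 3.02 (0.0657 to 24.9) and Csf2rb2 (1 UMI) one of 0.697 (0.0170 to 4.25), or 2.003 over the 683 cells (0.0452 to 14.9), so neither could be placed with these counts. The interval of Il3ra over the 747 cells includes 2-fold. Over the 683 stem cells only 3 receptors passed the minimum, 1 of them higher (Il3ra) and 1 lower (Csf3r), against 6.56% and 22.0% of 9538 genes.

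The 2 neutrophil gates were set against the stem gate in the same way. In granule progenitors 2 of 8 receptors were higher and 1 lower, with 7 past the minimum, and 8.35% of 11214 genes were higher and 33.9% lower. Csf1r was 16.6-fold higher (7.55 to 45.6) and Il6ra 4.08-fold (2.83 to 6.09), while Csf2rb at 1.68, Csf2ra at 1.64 and Il3ra at 1.55 times stayed under 2-fold. Over the 683 stem cells Csf2rb was 6.59-fold higher (4.42 to 10.3) and Il3ra 2.30-fold (1.82 to 2.94). The Il1rl1 call, at 0.0687 times (0.0322 to 0.134), ended there at 0.743 (0.220 to 3.20). Csf2rb2, under the minimum, lay at 0.141 times over the 747 cells and 0.406 over the 683 (0.152 to 1.14). Over all 747 stem-gated cells, the median log2 ratio was 0.67 for all 8 receptors, also the 1 under the minimum, and -0.52 over all genes. Scaling by the median of gene ratios, which sets that all-gene shift near 0, changed the split from 2 higher and 1 lower to 5 higher and 1 lower, and the shares of all genes to 16.2% higher and 22.3% lower.

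In the later neutrophil gate 1 of 8 was higher and 1 lower, with 6 past the minimum, and 7.15% of 10281 genes were higher and 42.6% lower. Csf2ra was 2.58-fold higher (2.21 to 3.03), Csf3r 1.45-fold (1.19 to 1.78), Csf2rb 1.23-fold and Il3ra 1.02-fold, and Il6ra, at 1.995-fold, just missed the threshold. Over the 683 stem cells Csf2rb was 4.83-fold higher (3.08 to 7.83) and Il3ra 1.52-fold (1.11 to 2.07), an interval that no longer includes 1. Csf2rb2, with 2 UMIs here and under the minimum, lay at 0.111 times over the 747 cells and 0.318 over the 683 (0.0329 to 1.59). Il1rl1 lay at 0.0587 times (0.00691 to 0.224) and at 0.636 over the 683 cells (0.0575 to 4.43), which ended the call. Over all 747 stem-gated cells, the median log2 ratio was 0.42 for all 8 receptors, also those under the minimum, and -0.75 over all genes. The median-of-ratios scaling changed the split from 1 and 1 to 4 higher and 1 lower, with 19.1% of all genes then higher and 25% lower.

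**Figure D4:**
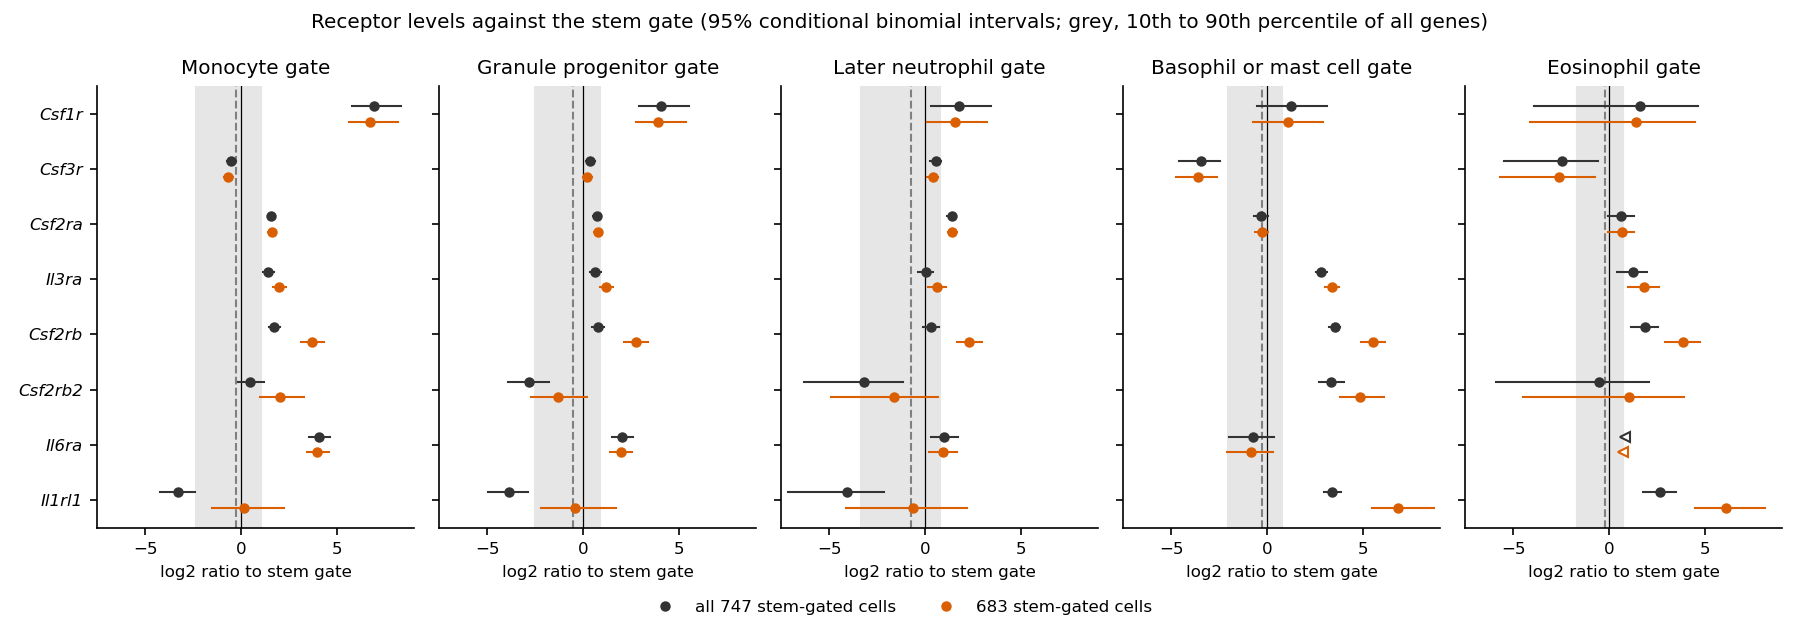
Log2 ratio of each receptor's level in 5 gates to the stem gate, over all 747 stem-gated cells (black) and over the 683 with at least 400 CPM of the stem markers other than Ifitm1 (orange), with exact 95% intervals; the grey band spans the 10th to 90th percentile of all genes tested and the dashed line is their median. Open triangles are the floor of 3 UMIs for Il6ra, at 0 in the eosinophil gate. Csf1r and Il6ra stand out in the monocyte gate, and Csf2rb, Csf2rb2, Il3ra and Il1rl1 in the basophil or mast cell gate, where the orange points lie further right.

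Counted per cell, receptor RNA was sparse, and depth differed between gates, so each cell was thinned to 5000 UMIs (728 stem, 873 monocyte, 249 basophil or mast cell, 23 eosinophil and 1120 erythroid gated cells reached this depth). Csf1r then had a UMI in 41.9% of monocyte-gated cells (38.6% to 45.3%; 83.9% unthinned), against 0.549% of stem-gated and 0.893% of erythroid-gated cells, which should lack it. Csf2rb was found in 58.6% of basophil or mast cell gated cells (52.2% to 64.8%; 83.8% unthinned), Il3ra in 47.0% (40.7% to 53.4%; 76.7% unthinned) and Csf2rb2 in 16.9% (12.4% to 22.1%; 36.8% unthinned). The erythroid shares of these were 0.804%, 1.52% and 0.0893%.

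Il1rl1 was found in 30.9% of basophil or mast cell (25.2% to 37.1%; 58.1% unthinned), 30.4% of eosinophil (13.2% to 52.9%) and 14.5% of erythroid gated cells (12.5% to 16.7%; 55.3% unthinned). The monocyte share, as the background for this gene, was 0.344% (1.03% unthinned), so the erythroid Il1rl1 lay above it. Il6ra was found in 37.0% of conventional dendritic and 31.4% of monocyte gated cells against 0.625% of erythroid. Csf3r was found in 18.6% of later neutrophil, 16.5% of granule progenitor, 13.6% of stem (11.2% to 16.3%) and 9.85% of monocyte gated cells against 0.625% of erythroid. Csf2ra was spread over most gates, from 47.8% of eosinophil (26.8% to 69.4%) and 36.4% of monocyte to 17.6% of stem and 3.93% of erythroid gated cells.

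**Figure D5:**
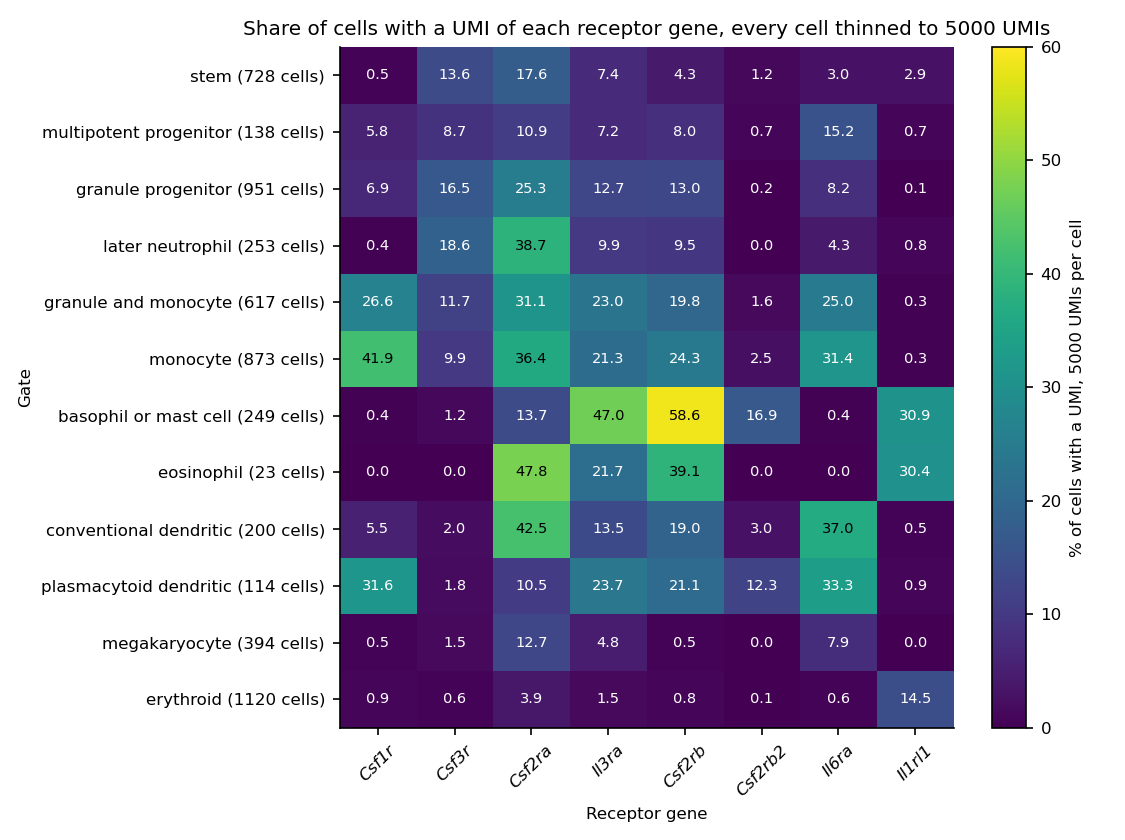
Percent of cells with at least 1 UMI of each receptor after thinning every cell to 5000 UMIs, in the 12 classes, with the number of cells of each class. Lighter colours are higher. The highest single share is 58.6% for Csf2rb in the basophil or mast cell gate.

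Several of these receptors pair different chains, so the thinned cells were also read for both chains at once. Il3ra and Csf2rb were found together in 28.5% of basophil or mast cell gated cells (23.0% to 34.6%) and in 5.73% of monocyte-gated cells. Csf2rb was detected in 60.7% of the basophil or mast cell gated cells with an Il3ra UMI and in 56.8% of those without, a small difference. Il3ra with Csf2rb2 was found in 7.23% of these cells, and Csf2rb with Csf2rb2 in 11.2%. Csf2ra and Csf2rb, the GM-CSF pair, were found together in 10.3% of monocyte-gated, 6.83% of basophil or mast cell gated and 0.549% of stem-gated cells, and in 5 of 23 eosinophil-gated cells.

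Il6ra and Il6st were found together in 13.2% of monocyte and 11.4% of plasmacytoid dendritic gated cells and in no basophil or mast cell gated cell. Il1rl1 and Il1rap were found together in 3 basophil or mast cell gated cells (1.21%) and 4 erythroid-gated cells (0.357%), where Il1rap itself lay between 2.88 and 10.1 CPM across the gates. Csf1r and Csf3r, the receptors of the macrophage and granulocyte factors, were found together in 38 monocyte-gated cells (4.35%). Csf3r was detected in 10.4% of monocyte-gated cells with a Csf1r UMI (7.45% to 14.0%) and in 9.47% of those without (7.06% to 12.4%), which overlapped. Of the 8 receptors, a thinned cell held on average 1.69 in the basophil or mast cell gate, 1.68 in the monocyte gate, 0.506 in the stem gate and 0.230 in the erythroid gate.

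The other genes of these pathways were read from lists. Of the ligands, Csf1 (148 CPM, 11.5-fold over stem, 9.18 to 14.6) and Il6 (76.7 CPM, 21.0-fold, 13.9 to 33.1) were higher in the basophil or mast cell gate, where their receptors Csf1r and Il6ra were near 0. Csf3, Il3, Il5, Il33 and Il34 had 0 UMIs in the stem gate and the 5 gates set against it, and Csf2 had 1 UMI, in the monocyte gate. The interleukin-5 alpha chain Il5ra, which also pairs with Csf2rb, was 58.2 CPM in the eosinophil gate (22 UMIs) against 2 UMIs in the stem gate, a ratio of 199 (49.0 to 1750) that rests on fewer than 50 UMIs. It was 2.97 CPM in the basophil or mast cell gate, and was found in 9 of 23 thinned eosinophil-gated cells.

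Downstream of the receptors, with ratios to all 747 stem-gated cells, the STAT signal transducers were lower than in the stem gate for 5 of 5 genes in both neutrophil gates, 3 of 5 in the monocyte gate and 1 of 5 in the basophil or mast cell and eosinophil gates. No STAT was higher. Of all genes, 33.9% were lower in granule progenitors, 42.6% in later neutrophil and 26.0% in monocyte gated cells. The share was 21.8% in the basophil or mast cell and 20.9% in the eosinophil gate, near the 1 of 5 counted there. Between 5.89% and 10.5% of all genes were higher across these gates. The median log2 ratio of the STATs was -1.12 in the monocyte gate, -1.39 in granule progenitors and -0.68 in basophil or mast cell gated cells. Over all genes it was -0.29, -0.52 and -0.28. Among the 4 Janus kinases, only Jak2 was higher in a gate (2.08-fold in basophil or mast cell gated cells, 1.78 to 2.44), and between 1 and 3 were lower in each. Of the 6 feedback inhibitors 5 had enough UMIs to be counted, all but Socs2, and none of these was higher in any of the 5 gates, between 1 and 4 were lower, and Socs3 in the monocyte gate lay at 0.0323 and Cish at 0.0350 times the stem level. The 4 interleukin-1 receptor adaptors, which act below Il1rl1, were never higher, and 1, Traf6, was lower in each neutrophil gate. Of the 3 partner chains, of which Il5ra never reached the minimum, Il6st was higher in the monocyte gate and lower in both neutrophil gates and the basophil or mast cell gate.

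Of the 9 regulators, 5 were higher and 2 lower (Gata1 and Gata2) in the monocyte gate, with Irf8 121-fold and Spi1, the gene of PU.1, 4.54-fold, and 7 were higher and 0 lower in the basophil or mast cell gate, with Gata2 2.43-fold and Cebpa 17.7-fold. In each of the other 3 gates 5 were higher, with 3 lower in both neutrophil gates and 1 in the eosinophil gate, and the higher ones included Cebpe, a regulator of granulocyte maturation, at 740-fold in the eosinophil gate (335 to 2037). The regulators had a median log2 ratio of 1.22 in the monocyte and 1.31 in the basophil or mast cell gate. Among 19 other cytokine receptors, of which 16 or 17 had enough UMIs per gate, 3 were higher in the monocyte gate (Il10ra, Ifngr2 and Ifnar2) and 1 in the basophil or mast cell gate (Il18r1, 5.26-fold), against 6 and 8 lower. The interferon-gamma receptor chain Ifngr1 was the 1 higher in granule progenitors (3.28-fold) and in later neutrophil gated cells (4.35-fold), each with 9 lower, and 2 were higher and 10 lower in the eosinophil gate. The background shares for these counts are those given above for the same gates.

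Over the 12 gates, which share 1 library, Il3ra and Csf2rb followed each other most closely of the 8 receptors, with a Pearson r of 0.979 on log2(CPM + 10). Csf1r and Il6ra had an r of 0.781, Il3ra and Csf2rb2 0.760, Csf2rb and Csf2rb2 0.745, and Il1rl1 and Il6ra -0.663. Among 12391 other genes with at least 100 UMIs, the 8 receptors and the gate markers left out, the nearest to Csf1r were Rnf149 (0.965), Klrb1f (0.961) and Hpse (0.959), and the nearest to Il1rl1 was Map2k4 (0.969). Il3ra was nearest to Kcnab2 (0.941) and Fcer1g (0.924), Csf2rb to Rpl10 (0.949) and Kcnab2 (0.926), and Csf2rb2 to Gm31718 (0.931), Abhd15 (0.928) and Cd200r1 (0.918). Csf3r was nearest to Pde2a (0.932) and Dpm1 (0.911), Csf2ra to Hexa (0.887) and Ralb (0.880), and Il6ra to Arpc5l (0.940) and Lactb (0.924). These are descriptions over 12 points of unequal depth.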

How the data were processed

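One control library of Lin- Kit+ mouse bone marrow cells was analysed. Per the labels and methods, the deposited UMI counts per gene and cell came from Cell Ranger 6.0.2 run against mm10, and they were used as deposited. Barcodes with more than 1000 and fewer than 50000 UMIs, more than 1000 and fewer than 6500 genes and a mitochondrial share under 7% were kept, 7645 of 8817 (1592 to 49991 UMIs, 151852381 in all), and doublets were removed only as an alternative (268 calls by Scrublet, 3.51%).

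Cells were gated on the summed CPM of marker lists that held none of the receptors. Of 13 such lists, that of T and NK cells was given no cut. Cuts were read from the distributions of the sums, at 2000 CPM for stem, 1000 for monocyte, later neutrophil, eosinophil and plasmacytoid dendritic, 1400 for multipotent progenitor, 2800 for megakaryocyte, 4000 for erythroid, basophil or mast cell and conventional dendritic, and 16000 CPM for granule progenitor gates. Cells past several cuts were left out, with 3 exceptions made after the marker sums were seen: the later neutrophil gate took precedence over the granule progenitor gate (267 of 269 cells passed both), dendritic cells kept their class past a multipotent progenitor or monocyte cut, and cells past the granule and monocyte cuts formed a class. The B cell list (3 cells) gave no class, and cells with RNA of the T and NK cell list were not set apart from the classes.

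UMIs were summed per gate. Levels have exact Poisson, ratios exact conditional binomial and shares exact Clopper-Pearson 95% intervals. UMI counts of 1 library are not replicates, and no p-value was computed. A gene at 0 UMIs has a floor of 3 UMIs, which also stood in for it in folds. The receptors and the lists were chosen with earlier results of these data known. All 8 receptors and all genes of the pathway lists were counted, and the genes nearest in profile were those of highest r. Some genes that these rules name are not reported here. The scripts were tested on simulated counts first. Positions are from GENCODE vM21 (GRCm38), which may not be the release used for the counts, and promoter sequences from RefSeq (GRCm38.p6). Python 3.11.15, NumPy 2.4.6, SciPy 1.17.1, pandas 2.3.3, Scanpy 1.11.5 and matplotlib 3.10.9 were used, with seed 1. The alternatives were other cell filters, gates, scalings, depths, minima and folds.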

Additional observations from a re-analysis of the deposited data

Results flagged for a closer look

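The 1172 barcodes removed by the cell filter entered no comparison, and all 8 receptors were present in them above the limit that a count of 0 allows (0.192 CPM). Csf1r was at 9.23 CPM there against 25.1 in kept cells, Csf3r at 9.49 against 18.4, Csf2ra at 23.4 against 48.3 and Il3ra at 9.62 against 27.7. Csf2rb was at 10.3 CPM against 28.3, Csf2rb2 at 1.60 against 3.23 and Il6ra at 9.10 against 25.7. Il1rl1 was the exception, at 20.6 CPM (18.4 to 23.0) against 11.8 in kept cells. Their median depth was 2952 UMIs.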

How the results depend on the processing

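The count of receptors past 2-fold stayed within 1.5 times its value for the monocyte gate (6, range 4 to 7) and the basophil or mast cell gate (5, range 4 to 6) under all 16 alternatives. Granule progenitors (3) gave 5 without the most abundant marker of each list and with cells past several cuts kept, and 6 by profile assignment and by median-of-ratios size factors. Later neutrophil gated cells (2) gave 1 without the most abundant marker, thinned to 5000 UMIs or at 3-fold, 4 with cells past several cuts kept, a minimum of 20 UMIs or none, and 5 by median-of-ratios size factors. Eosinophil-gated cells (4) gave 1 with cuts doubled, cuts halved (8 cells) or without the most abundant marker, and 2 without the 64 stem cells resting on Ifitm1. Among ratios to stem whose 95% interval excluded 1, those that changed direction were Csf1r in later neutrophil gated cells (0.719 thinned), Csf3r in monocyte-gated cells (1.02, cuts doubled), Csf2rb in granule progenitors (0.750 with cuts doubled, 0.992 with several cuts kept), and Il1rl1 without the most abundant marker in the monocyte (1.19) and granule progenitor (1.59) gates, without the 64 stem cells in the monocyte gate (1.12), and in the eosinophil gate with cuts halved (0). Of 520 ratios under alternatives 372 moved within their interval, 140 moved beyond it and 8 changed direction as above; ratios whose interval included 1 were judged by that interval alone, and several of them crossed 1. Csf2rb in the basophil or mast cell gate ranged from 5.13-fold (several cuts kept) to 104-fold (without the most abundant marker, Ifitm1 in the stem list) and Csf1r in the monocyte gate from 57.5-fold to 165-fold. The cause was not tested. Keeping cells past several cuts and leaving out the 64 stem cells were chosen after seeing the data. No paired analysis was possible because there is 1 library. The eosinophil values rest on 30 cells.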

Other observations

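Among all kept cells, 43 cells with at least 200 CPM of the T cell receptor constant genes Trbc1 and Trbc2, chosen after the values were seen, had Il1rl1 at 145.6 CPM (104 to 198, 40 UMIs), above the 74.7 CPM of the basophil or mast cell gate. They also held Il7r at 691, Gata3 at 375 and Rora at 320 CPM, with the T cell gene Cd3e at 18.2 CPM, a median of 3681 UMIs, and 0 UMIs of Csf1r, Csf3r and Il6ra. A set of 63 cells past both the stem and the basophil or mast cell cuts, left out above as mixed, had Csf2rb at 212 CPM (180 to 249), Il3ra at 128, Csf2rb2 at 40.7 and Il1rl1 at 37.9 CPM, with Mcpt8 at 11738 CPM and Ifitm1 at 2907 CPM against Hlf at 66.03 CPM.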
